A study of Mus musculus with 12 samples.

Results

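*Ifna1* and *Ifnb1*, the type I interferon genes of the NanoString panel, are described here in all 12 tumors of the study. They were taken by name from the deposited table and make up 2 of its 48 genes, of which 43 are panel genes and 5 are house-keeping genes. The B16.F10 tumors arose from a mouse melanoma cell line, of which 1000000 cells were implanted under the skin of C57BL/6 mice aged 6 to 8 weeks. At about 200 mm3, each tumor was injected once with 100 µL of PBS (the negative control), of free D-PDB (the polymer carrier without DNA), or of NanoISD (the same polymer loaded with immunostimulatory DNA, at 2 µg). The D-PDB dose was equivalent to that in NanoISD, each treatment has 4 tumors, and RNA was taken after 6 hours. All tumors are thus of 1 cell line in 1 host strain, at 1 time and 1 dose. The table lists 0 of 15 marker genes that were looked up for melanoma cells, plasmacytoid dendritic cells, macrophages, T cells, and neutrophils, so neither the labelled tumor type nor the cell source of interferon can be checked from it.

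Type I interferons are secreted antiviral cytokines that signal to the producing cell and its neighbors through a shared receptor, IFNAR. When DNA appears in the cytosol, the sensor cGAS makes a cyclic dinucleotide that activates STING, which leads to phosphorylation of IRF3 and activation of NF-κB. *Ifnb1* is a single gene that both factors switch on early, whereas the *Ifna* genes form a cluster of close copies that depend more on IRF7, itself raised by interferon signaling. Interferon then induces a broad set of genes that includes the T cell-attracting chemokine *Cxcl10*.

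The RefSeq table of GRCm38.p6 places both genes on chromosome 4, as it does all 14 *Ifna* genes it lists, *Ifna1* among them. The bases from 200 to 81 before their annotated starts are shown because the elements through which IRF factors and NF-κB are known to act lie close to the start of these genes. Capitals mark matches to the IRF consensus AANNGAAA or to the NF-κB pattern GGAANTTCC (N is any base), and both strands were searched over 250 bases before the start. The *Ifna1* stretch is chr4:88849887-88850006 on the plus strand, and the *Ifnb1* stretch is chr4:88522875-88522994 on the minus strand, each written in the direction of its gene.
Ifna1: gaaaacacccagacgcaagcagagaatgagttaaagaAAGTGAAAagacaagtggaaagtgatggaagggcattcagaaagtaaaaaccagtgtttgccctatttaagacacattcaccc
Ifnb1: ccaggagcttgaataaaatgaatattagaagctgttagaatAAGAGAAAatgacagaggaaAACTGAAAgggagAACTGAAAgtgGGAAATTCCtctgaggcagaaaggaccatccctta
*Ifna1* has 1 match to the IRF consensus and 0 to the NF-κB pattern, and *Ifnb1* has 3 and 1, none of them overlapping. Among 32851 promoters of the same length, 21.3% hold at least 1 IRF match and 0.849% hold 3 or more, while 0.813% hold the NF-κB pattern. The promoter table lists *Ifnb1* and the *Ifna* genes other than *Ifna7*. Each of these 14 promoters holds an IRF match, and 1 of the 14, that of *Ifnb1*, holds the NF-κB pattern. These matches are descriptions of the letters and were not tested for binding.

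The values are log2 fold changes, scaled by the authors to the 5 house-keeping genes and centered on the PBS group, whose mean is therefore 0 for each gene. They carry no counts, so the depth behind a value is unknown, and the level of one gene cannot be set against that of another. *Ifna1* and *Ifnb1* each had a lowest value that 1 tumor held alone. A lowest value shared by 5 or more tumors, as a detection limit would give, occurred in 3 panel genes (*Ccl20*, *Csf3*, and *Cxcl17*). An unshared lowest value does not show detection, and whether either interferon was above background cannot be judged from values without counts. The probe sequences are not used here, so whether the *Ifna1* probe also captures other *Ifna* transcripts was not tested. In whole tumors, more producing cells and more RNA per cell cannot be told apart.

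*Ifna1* rose after NanoISD. The PBS-treated tumors 1 to 4 had log2 values of 0.22, 0.03, -0.19, and -0.06. The D-PDB-treated tumors 1 to 4 had values of -0.91, -0.08, 0.35, and -0.38. The NanoISD-treated tumors 1 to 4 had values of 1.42, 0.88, 2.51, and 0.86. Every NanoISD-treated tumor thus lay above all 8 other tumors, with tumor 3 the highest and tumors 2 and 4 nearly equal. The group means were 0 ± 0.17 (SD, n = 4) after PBS, -0.26 ± 0.53 (SD, n = 4) after D-PDB, and 1.42 ± 0.77 (SD, n = 4) after NanoISD.

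In limma, fitted to all 12 tumors with adjustment over the 43 panel genes, *Ifna1* was higher after NanoISD than after PBS by 1.42 on the log2 scale (standard error 0.41, adjusted p = 0.0155), which is 2.67-fold with a 95% interval of 1.44 to 4.94. For comparison, 51.2% of the panel genes rose at an adjusted p under 0.05 (58.1% at an unadjusted p), and 41.9% had no overlap with NanoISD above PBS, so that neither the call nor the separation sets *Ifna1* apart from the panel. By size its difference ranked 21 of 43, next to those of the chemokines *Ccl1* (1.53) and *Ccl22* (1.20), and the median over the panel was 1.20. Against D-PDB, the *Ifna1* difference was 1.67 with a standard error of 0.41 (limma, adjusted p = 0.0140), or 3.19-fold with a 95% interval of 1.72 to 5.90. Here 25.6% of the panel genes rose and 18.6% did not overlap. *Ifna1* ranked 13 of 43 by size and 4 by its p, above the panel median of 1.01. The count of 11 genes behind this share was unstable, at 5 when D-PDB tumor 1 or 3 was left out, 7 for D-PDB tumor 2, 17 for D-PDB tumor 4, and 20 for NanoISD tumor 2. *Ifna1* passed in each of these cases, but only narrowly without D-PDB tumor 1 (adjusted p = 0.0498 in limma). Its call against D-PDB was lost once the PBS-treated tumors were left out of the fit (adjusted p = 0.0590 in limma).

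**Figure D1:**
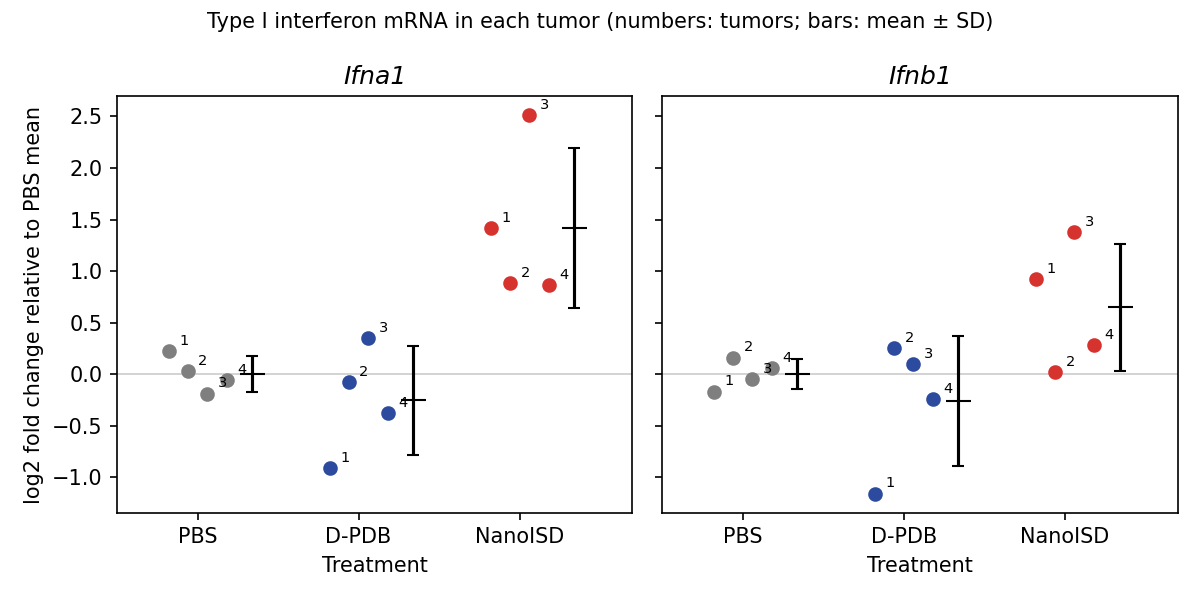
Log2 fold change of *Ifna1* (left) and *Ifnb1* (right) relative to the PBS mean, by treatment. Each point is 1 tumor with its number, and bars give the mean and SD of 4 tumors. The 4 NanoISD-treated tumors lie between 0.86 and 2.51 for *Ifna1*, above all others, and between 0.02 and 1.38 for *Ifnb1*, where they overlap both other groups.

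*Ifnb1* had a higher mean after NanoISD in these values, but did not pass the threshold. The authors also measured *Ifnb1* by qPCR in B16.F10 tumors at the same time and dose, with more samples per treatment. They reported it as significantly higher after NanoISD than after PBS or D-PDB, and as increased after D-PDB. Those qPCR values are not used here. The PBS-treated tumors 1 to 4 had log2 values of -0.17, 0.16, -0.05, and 0.06. The D-PDB-treated tumors had values of -1.16, 0.25, 0.10, and -0.24, and the NanoISD-treated tumors had values of 0.92, 0.02, 1.38, and 0.28. NanoISD tumors 1 and 3 lay above all PBS- and D-PDB-treated tumors, tumor 4 lay just above them, and tumor 2 lay within both groups. The difference from PBS was 0.65 (standard error 0.40, adjusted p = 0.178 in limma), or 1.57-fold with a 95% interval of 0.868 to 2.84. It ranked 33 of 43 by size, between *Ccl20* (0.67) and *Tnfa* (0.54), and was 0.41 without NanoISD tumor 3 and 0.86 without NanoISD tumor 2.

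The difference of *Ifnb1* from D-PDB was 0.91 (standard error 0.40), or 1.88-fold with a 95% interval of 1.04 to 3.40. Its unadjusted p in limma was 0.0381 and its adjusted p was 0.0952, beside 20 of the 43 genes (46.5%) that rose at an unadjusted p under 0.05. It passed without NanoISD tumor 2 (difference 1.12, adjusted p = 0.0378 in limma). Without D-PDB tumor 1 the difference was 0.61. The adjusted p ranged from 0.0378 to 0.235 over the alternatives.

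**Figure D2:**
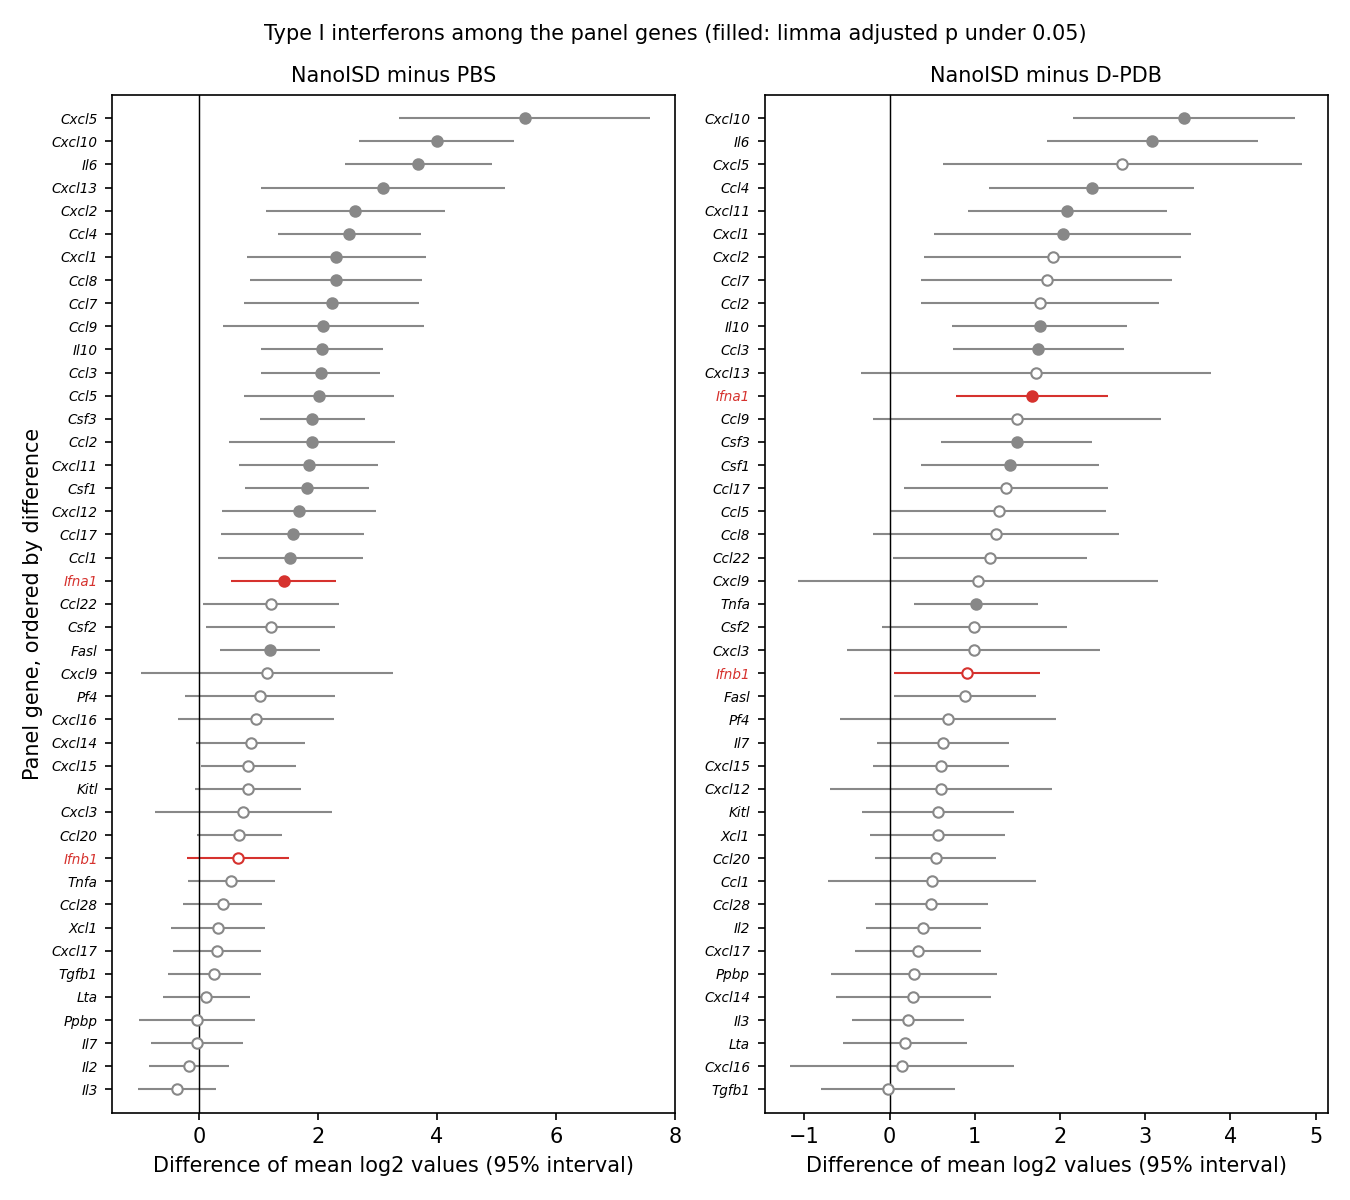
Difference of mean log2 values between NanoISD and PBS (left) and between NanoISD and D-PDB (right) for the 43 panel genes, ordered by size, with 95% intervals from limma. Filled points passed an adjusted p of 0.05. *Ifna1* and *Ifnb1*, in red, rank 21 and 33 on the left, and 13 and 25 on the right.

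The responses of the 2 interferons were compared within each tumor, where the scaling to house-keeping genes cancels. Background signal and capture of other *Ifna* transcripts by the *Ifna1* probe would not cancel there, and their part was not tested. *Ifnb1* minus *Ifna1* was -0.50, -0.86, -1.13, and -0.58 in NanoISD tumors 1 to 4. It was -0.39, 0.13, 0.14, and 0.12 in the PBS-treated tumors and -0.25, 0.33, -0.25, and 0.14 in the D-PDB-treated tumors. All 4 NanoISD-treated tumors lay below all 8 others, so that relative to the control tumors *Ifna1* exceeded *Ifnb1* in each of them. The mean difference was -0.77 from PBS and -0.76 from D-PDB (two-sided exact permutation tests, p = 0.0286 for both, the smallest that 4 tumors against 4 allow). Adjusted over the 6 comparisons of this kind, both exact permutation tests had p = 0.0343. The call against PBS was lost without any 1 NanoISD tumor (differences of -0.86 to -0.65, exact permutation p = 0.0571), although the groups still did not overlap. With groups of unequal size, a split in the opposite direction was then at least as large. This loss therefore does not show that the difference rests on 1 tumor. Both calls were lost with group medians. PBS tumor 1, at -0.39, stood apart from the other PBS-treated tumors and came close to NanoISD tumor 1, at -0.50.

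*Cxcl10*, which interferon and IRF3 both induce, exceeded either interferon. Its log2 values were 3.59, 2.07, 5.64, and 4.67 in NanoISD tumors 1 to 4, and its mean was 3.99 ± 1.53 (SD, n = 4). *Cxcl10* minus *Ifnb1* was 3.34 higher after NanoISD than after PBS and 2.54 higher than after D-PDB (exact permutation tests, p = 0.0286 and adjusted p = 0.0343 for both). The call against D-PDB was lost without any 1 D-PDB tumor (2.40 to 2.83, exact permutation p = 0.0571), although the groups still did not overlap. Here too a split in the opposite direction was at least as large, so dependence on 1 tumor is not shown. With group medians both exact permutation tests gave p = 0.0571, the smallest that medians of 4 tumors against 4 allow. *Cxcl10* minus *Ifna1* was 2.58 higher than after PBS (exact permutation test, p = 0.0286, adjusted p = 0.0343). This call was lost without any 1 PBS tumor (2.39 to 2.81, exact permutation p = 0.0571), although the groups still did not overlap, for the same reason. With group medians its exact permutation p was again 0.0571, the smallest possible there. The same measure was 1.78 higher than after D-PDB and did not pass (exact permutation test, p = 0.0571), as the groups overlapped through D-PDB tumor 1 (1.40) and NanoISD tumor 2 (1.19). *Cxcl10* was chosen with its response in these tumors known.

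**Figure D3:**
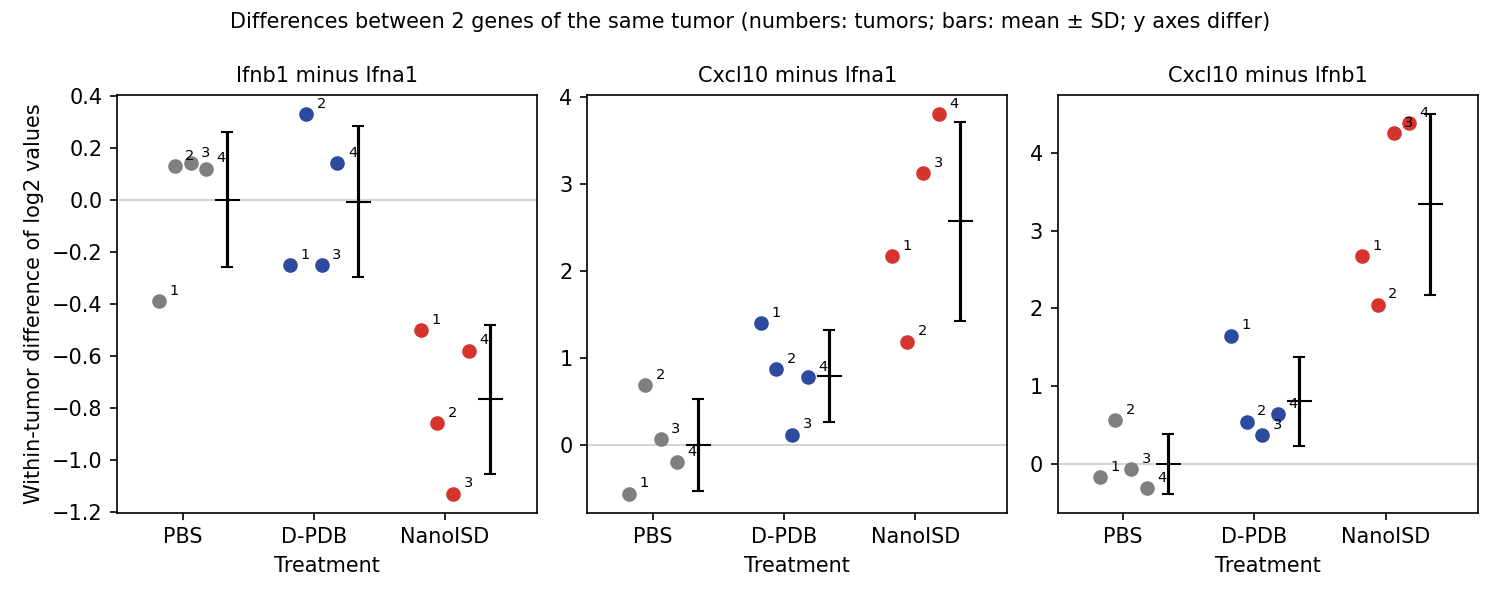
Difference between the log2 values of 2 genes in the same tumor, by treatment, with the mean and SD of 4 tumors; the 3 y axes differ. *Ifnb1* minus *Ifna1* is at -0.50 or lower in the NanoISD-treated tumors and at -0.39 or higher in the others, and *Cxcl10* minus *Ifnb1* is at 2.05 or higher after NanoISD and at 1.65 or lower in the others.

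Neither interferon passed the test after D-PDB alone. The differences from PBS were -0.26 for *Ifna1* (standard error 0.41, 0.838-fold, 95% interval 0.453 to 1.55) and -0.26 for *Ifnb1* (standard error 0.40, 0.834-fold, 95% interval 0.461 to 1.51), with adjusted p = 0.831 for both in limma. These intervals leave room for changes in either direction. In limma 0 genes (0.0%) passed in either direction, and at an unadjusted p under 0.05 there was 1 higher gene (2.33%), the chemokine *Cxcl5*, and 0 lower genes. All D-PDB-treated tumors lay below all PBS-treated tumors in 1 gene (2.33%), *Il2*, and both interferons overlapped. Both interferon means depended on D-PDB tumor 1, and with it left out they differed from PBS by -0.037 for *Ifna1* and 0.037 for *Ifnb1*. That tumor held the lowest value of all 12 tumors for 14 of the 43 panel genes, including both interferons, *Il7* (-1.64), *Cxcl3* (-1.62), *Il2* (-1.24), and *Ppbp* (-1.19), although its mean over the panel was 0.04. The part of this pattern in the interferon values was not tested.

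The values of *Ifna1* and *Ifnb1* were correlated over the tumors, but the relation rested on few of them. Over the deviations from the treatment means, Pearson's r was 0.86 and Spearman's rho was 0.83, and a two-sided exact permutation test of r within treatments gave p = 0.00803 (adjusted over 3 relations, p = 0.0120). Without the 2 tumors of largest *Ifna1* deviation, NanoISD tumor 3 and D-PDB tumor 1, r was 0.62 and rho was 0.61, and the relation no longer passed (exact permutation test of r, p = 0.188). Without the 2 tumors farthest from the median deviation, NanoISD tumor 3 and D-PDB tumor 3, r was 0.87 (exact permutation test, p = 0.0394), with D-PDB tumor 1, the lowest in both genes, still included. Within the 8 PBS- and D-PDB-treated tumors r was 0.82 and rho was 0.55 (exact permutation tests, p = 0.0626 and p = 0.171), and r was 0.24 without D-PDB tumors 1 and 3, so that among the controls the relation rested on those tumors. Within the 4 NanoISD-treated tumors r was 0.94, within D-PDB 0.89, and within PBS -0.36, given here without a test.

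**Figure D4:**
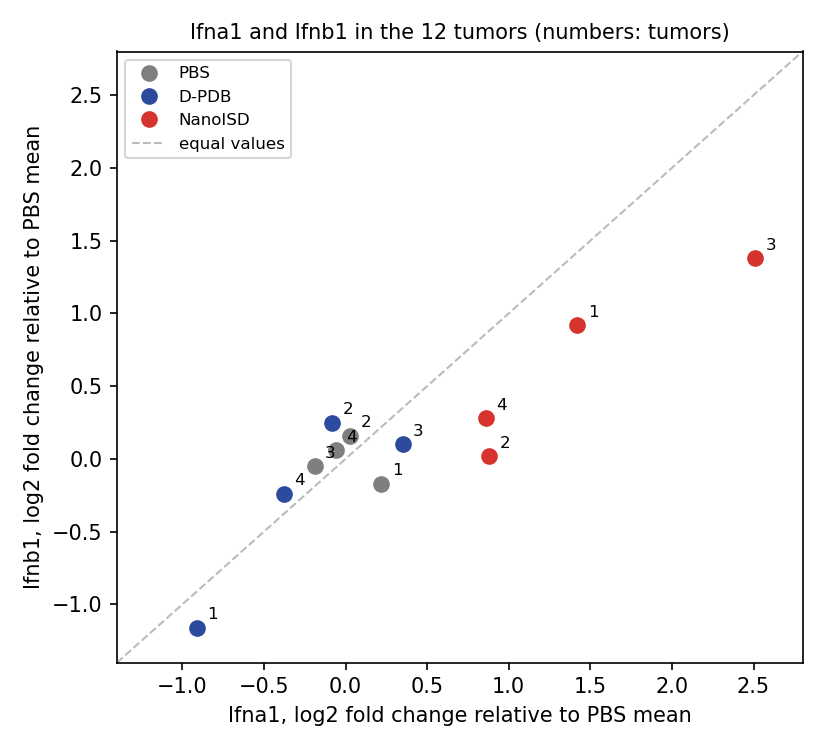
*Ifnb1* against *Ifna1*, both as log2 fold change relative to the PBS mean, in the 12 tumors (numbers give the tumor, colors the treatment, the dashed line equal values). The 4 NanoISD-treated tumors lie to the right of all others and below the line, and D-PDB tumor 1 lies lowest in both genes.

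The panel genes most like *Ifna1* over the 12 tumors were *Ifnb1* (r = 0.90), *Cxcl11* (r = 0.87), and *Cxcl10* (r = 0.86). Those most like *Ifnb1* were *Ifna1*, *Tnfa* (r = 0.86), and *Cxcl11* (r = 0.79). *Cxcl11*, like *Cxcl10*, encodes a ligand of CXCR3, a chemokine receptor found on T cells, and *Tnfa* encodes tumor necrosis factor. These values are descriptions, since the tumors share the treatment difference and the house-keeping scale. Over deviations from the treatment means, r was 0.62 for *Ifna1* with *Cxcl11*, 0.54 with *Cxcl10*, and 0.77 for *Ifnb1* with *Tnfa*. On that measure, chosen after its values were seen, other genes were as near or nearer. For *Ifna1*, *Cxcl17* (0.75) and *Il2* (0.73) exceeded both CXCR3 ligands. For *Ifnb1*, *Il2* (0.86) exceeded *Tnfa*. The lowest value of *Cxcl17* was shared by 10 tumors, and D-PDB tumor 1 held the lowest *Il2* value.

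Both interferons were highest in NanoISD tumor 3, at 5.70-fold for *Ifna1* and 2.60-fold for *Ifnb1* on the linear scale. Most of the panel had another order, with 28 of 43 genes highest in tumor 1 and 13 in tumor 3 among the NanoISD-treated tumors. Of 7 interferon-induced chemokines, 4 were highest in tumor 3 (*Ccl5*, *Cxcl9*, *Cxcl10*, and *Cxcl11*) and 3 in tumor 1. Of 11 NF-κB-driven cytokines and chemokines, 2 were highest in tumor 3 (*Il6* and *Tnfa*) and 9 in tumor 1. NanoISD tumor 2 had the lowest panel mean of its group, 0.58, and its *Ifna1* value of 0.88 was close to the 0.86 of tumor 4, whose panel mean was 1.14. These orders come from single tumors and were not tested.

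Other genes of the pathway were read from lists chosen with earlier results known. Against PBS, 6 of 7 interferon-induced chemokines rose in limma, from 1.84 for *Cxcl11* to 3.99 for *Cxcl10*, and *Cxcl9* did not pass (1.14, adjusted p = 0.327). Their median difference was 2.01, against 1.20 for the panel and the 51.2% of it that rose. Of the NF-κB-driven genes, 7 of 11 rose, with a median of 2.04, from 1.90 for *Csf3* to 5.47 for *Cxcl5*, a neutrophil-attracting chemokine with the largest difference of the panel. *Il6*, the pyrogenic cytokine, rose by 3.68, and *Tnfa* (0.54) had the smallest difference of the list and did not pass. Of 5 lymphocyte cytokines, *Fasl* rose (1.19, adjusted p = 0.0224 in limma), the list median was 0.12, and the lowest difference was that of *Il3* (-0.38, adjusted p = 0.305 in limma). Of the platelet chemokines *Pf4* and *Ppbp*, 0 of 2 passed in limma, with 0 at an unadjusted p under 0.05. Against D-PDB, 2 of 7 interferon-induced chemokines rose (*Cxcl10* and *Cxcl11*), as did 6 of 11 NF-κB-driven genes, beside 25.6% of the panel. These counts were unstable. For the chemokines, the count was 1 with D-PDB tumor 1 left out, 4 with D-PDB tumor 4 left out, and 6 with NanoISD tumor 2 left out. For the NF-κB-driven genes, it was 3 with D-PDB tumor 1 or 2 left out and 2 with D-PDB tumor 3 left out. It was 8 with D-PDB tumor 4 left out, and 7 with NanoISD tumor 2 or 4 left out. With the PBS-treated tumors left out of the fit, 1 gene of each list passed (*Cxcl10* and *Il6*). Their median differences were 1.77 and 1.75, against 1.01 for the panel. None of the lymphocyte or platelet genes passed there in limma (0 of 5 and 0 of 2, with 1 and 0 at an unadjusted p under 0.05). For D-PDB against PBS, 0 genes of any list passed in limma, and the list medians lay between -0.26 and 0.39. None of the lists holds *Ifna1* or *Ifnb1*.

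**Figure D5:**
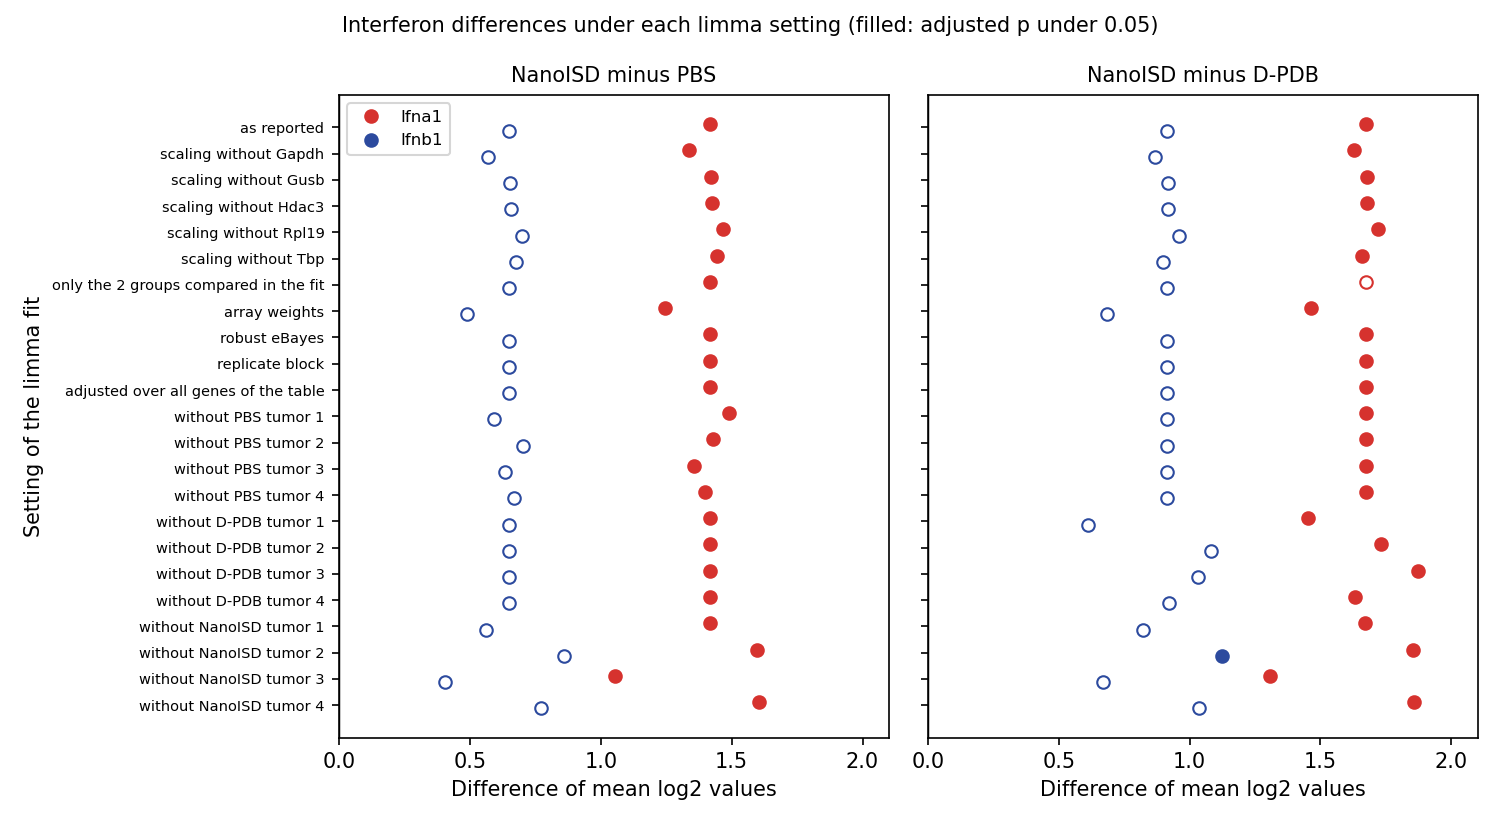
Difference of mean log2 values of *Ifna1* (red) and *Ifnb1* (blue) between NanoISD and PBS (left) and between NanoISD and D-PDB (right) under each setting of the limma fit; filled points passed an adjusted p of 0.05. *Ifna1* lies between 1.05 and 1.60 on the left and between 1.31 and 1.87 on the right, above *Ifnb1* in each setting shown.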

How the data were processed

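RNA from 12 tumors (100 ng each) was hybridized to fluorescent barcodes, counted on the NanoString nCounter platform, and processed in nSolver by the authors, who deposited log2 fold changes with 2 decimals. The settings of nSolver, including its version and background threshold, are not given in the sources used here. The 576 values hold 0 missing entries and were used as deposited, without a pseudocount, filter, or further scaling. With no counts, precision rests on the 4 tumors per treatment. Tumors were grouped and numbered by their titles.

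Per-gene tests used limma 3.58.1 under R 4.3.3 (lmFit and eBayes, 3 treatments in 1 fit, Benjamini-Hochberg adjustment over 43 panel genes, threshold 0.05). Differences within a tumor were compared by two-sided exact permutation tests over 70 splits. Correlations of treatment deviations were tested by exact permutation within treatments. Calculations used Python 3.11.15, numpy 2.4.6, scipy 1.17.1, and pandas 2.3.3, and plots used matplotlib 3.10.9. Both tests were checked on simulated data.

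The members, gene lists, and tests were chosen with earlier results of these data known. The genes named are the 2 members, *Cxcl10*, the 3 panel genes most correlated with each member, their neighbors in rank, and the extremes of each list. *Il6*, genes counted in small groups, those nearest within treatments, and those lowest in D-PDB tumor 1, highest in NanoISD tumor 3, or sharing a lowest value were named after their values were seen. Of 48 gene names, 47 matched the RefSeq table (GRCm38.p6) by symbol and 1 (*Tnfa*) by synonym. The NF-κB pattern was set after longer forms of it had been searched, which matched in *Ifnb1* and not in *Ifna1* as well. The alternatives were other house-keeping genes, tumors left out in turn, 2-group fits, array weights, robust eBayes, a replicate block, all genes adjusted, exact tests, linear folds, and medians.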

Additional observations from a re-analysis of the deposited data

Results flagged for a closer look

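Of 18 groups of 4 tumors searched for a single distant tumor, 1 exceeded Dixon's limit, about what chance gives at 1 in 20. It was *Ifnb1* minus *Ifna1* in the PBS group, where the value of tumor 1 was -0.39 and those of tumors 2 to 4 were 0.12 to 0.14, so that the gap took up 0.962 of the whole spread. In that tumor *Ifna1* was the highest of its group, at 0.22, and *Ifnb1* the lowest, at -0.17.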

How the results depend on the processing

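*Ifna1* against PBS passed in 24 of 24 alternatives, between 1.05 and 1.60 with any tumor left out. Against D-PDB it passed in 23 of 24 (1.31 to 1.87 with tumors left out), with the loss at an unchanged 1.67 when only those tumors were fitted. For both comparisons, the alternatives include exact permutation tests on log2 values and on linear folds, without adjustment over the panel. Each of these exact permutation tests gave p = 0.0286 for *Ifna1*, the smallest that 4 tumors against 4 allow. *Ifnb1* against PBS passed in 0 of 24, and against D-PDB in 1 (0.61 to 1.12). *Ifnb1* for D-PDB against PBS reversed to 0.037 without D-PDB tumor 1 (-0.43 to 0.037). Leaving 1 house-keeping gene out of the scaling moved *Ifna1* against PBS to between 1.34 and 1.47.

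Whether the replicate numbers pair the tumors cannot be settled from so few of them. Same-numbered tumors correlated between -0.52 and 0.47 over the panel genes, and 3 of 12 pairs exceeded 0.1. Tumors of other numbers correlated between -0.57 and 0.70, and 15 of 36 pairs exceeded 0.1. As a block in limma the replicate numbers changed no call of either interferon, and 8 panel genes then passed between NanoISD and D-PDB. The within-tumor differences lost their call in an exact sign-flip test paired by number, which cannot go below p = 0.125, at unchanged values of -0.77 and -0.76 (*Ifnb1* minus *Ifna1*, against PBS and D-PDB), 3.34 and 2.54 (*Cxcl10* minus *Ifnb1*), and 2.58 (*Cxcl10* minus *Ifna1*, against PBS). With group medians these were -0.84, -0.67, 3.59, 2.88, and 2.72, with exact permutation p between 0.0571 and 0.0857. A median-based exact permutation test of 4 tumors against 4 cannot go below p = 0.0571, so that none of these could pass. With tumors left out they ranged from -0.90 to -0.65, -0.85 to -0.64, 2.99 to 3.77, 2.19 to 2.97, and 2.16 to 3.04, and the first lost its call without any 1 NanoISD tumor, the fourth without any 1 D-PDB tumor, and the last without any 1 PBS tumor (exact permutation tests, p = 0.0571). *Cxcl10* minus *Ifna1* against D-PDB, 1.78, ranged from 1.37 to 2.24, passed without NanoISD tumor 2, and passed as linear folds (19.3).

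The panel count between NanoISD and D-PDB moved from 11 to between 5 and 20 with tumors left out and to 2 when only these tumors were fitted. The correlation of the interferons, 0.90 over all 12 tumors, was 0.82 (exact permutation test, p = 0.0626) within the 8 tumors not given NanoISD, and it was 0.62 (exact permutation test, p = 0.188) over treatment deviations without NanoISD tumor 3 and D-PDB tumor 1, both choices made after seeing the data. The causes were not tested.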
